A study of Mus musculus with 12 samples.

Results

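The genes examined here are 10 that recognise double-stranded RNA or pass its signal on: Ddx58, Ifih1, Dhx58, Tlr3, Zbp1, Eif2ak2, Adar, Mavs, Irf3 and Irf7. They were taken by name from a count table of 39423 genes, in which each of the 10 had its own row. No value entered the matching of names, but the genes were chosen with earlier results of these data known. The libraries came from 3T3-L1 cells, a mouse preadipocyte line that forms fat cells when induced with DMI (labelled MDI by the submitters), a mix of insulin, dexamethasone and 3-isobutyl-1-methylxanthine. Cells had received a nontargeting siRNA (labelled NC, here siCtrl) or an siRNA against the arginine methyltransferase PRMT1 (siPRMT1), and mRNA was sequenced at 24 h (day 1) and 72 h (day 3) of induction, with 3 libraries in each of the 4 groups. All 12 libraries thus carried a transfected siRNA and the induction mix, the knockdown was transient and partial, and cells without siRNA or before induction were not analysed here. The study's methods speak in general of independent experiments, but no source used here ties the 3 libraries of a group to separate cultures, so the p-values measure only the spread between these libraries, which may be technical.

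Double-stranded RNA in the cytoplasm is bound by RIG-I (gene Ddx58) and MDA5 (Ifih1), 2 helicases that signal through the mitochondrial adaptor MAVS, while TLR3 senses it in endosomes. The adaptors lead to kinases that phosphorylate IRF3 and IRF7, transcription factors that switch on type I interferon genes, and secreted interferon then acts through the factor ISGF3, which holds STAT2 and IRF9, to raise many of the same sensors. PKR (Eif2ak2) answers double-stranded RNA by phosphorylating eIF2α, ZBP1 binds Z-form nucleic acid and can start cell death, and ADAR edits adenosine to inosine in double-stranded RNA, which keeps the cell's own RNA from being read as foreign.

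The siRNAs are shown because they set the groups and are themselves short RNA duplexes. The study's methods list 3 duplexes against Prmt1, and the sources used here do not say which was used for sequencing. Each is written as its sense strand of 25 bases, 5′ to 3′, and its listed antisense strand was the exact reverse complement. Matched to the GENCODE transcripts of Prmt1 (minus strand of chromosome 7), all 25 bases of each lay in coding sequence, at GRCm38 chr7:44981826-44981850 in exon 4 for siPRMT1-1, chr7:44977511-44977535 in exon 10 for siPRMT1-2 and chr7:44978900-44978924 in exon 7 for siPRMT1-3.
siPRMT1-1: ccauguuucacaaucggcaucucuu
siPRMT1-2: ccauuggaaugaggcccaaugccaa
siPRMT1-3: cagccauugaggaccgacaauauaa

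Promoter sequence is shown for the genes whose start region held the core of the interferon-stimulated response element, the sequence ISGF3 binds, because interferon is known to raise several of the 10 genes. RefSeq windows on GRCm38.p6, from 250 bases before to 50 after a gene's start, were given for 8 of the 10 genes, not for Dhx58 and Zbp1. The core was taken as GAAA, any 2 bases and again GAAA, and, searched on both strands, was found in 3 of the 8 genes (3 of their 10 windows), beside 3.44% of all 32851 windows. In Ddx58 (chr4:40239804-40239833, minus strand) it stood on the strand opposite to the gene at bases 3 to 12 after the start, in Ifih1 (chr2:62646206-62646235, minus strand) at bases 33 to 42 and in Eif2ak2 (chr17:78882535-78882564, minus strand) at bases 19 to 28. Capitals mark the motif, and each line follows the strand of its gene.
Ddx58: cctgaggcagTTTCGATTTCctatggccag
Ifih1: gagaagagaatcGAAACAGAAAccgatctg
Eif2ak2: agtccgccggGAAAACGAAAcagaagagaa
A match describes these letters only, and a window without a match says nothing about the binding of a factor.

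The targeted gene was checked first. Prmt1 stood at 82.9, 83.4 and 91.3 FPKM (fragments per kilobase of listed gene length, scaled to the library total) in the siCtrl day 1 libraries and at 43.8, 38.6 and 41.4 in the siPRMT1 day 1 libraries. At day 3 it stood at 111, 120 and 140 FPKM in siCtrl and at 62.0, 71.7 and 68.5 in siPRMT1, so that no siPRMT1 library reached a siCtrl library of its day. The deepest library, siCtrl day 1 replicate 1, held 42357137 counts, and the other 11 held 15116462 to 26878683. Replicate 3 of siCtrl day 1 stood apart: without it, the genes called in the day 1 knockdown comparison went from 267 higher and 220 lower to 504 and 369, while leaving out any other day 1 library gave 61 to 165 higher and 62 to 177 lower. Preadipocyte or fibroblast markers summed to 916 to 1025 FPKM in siCtrl and 904 to 957 in siPRMT1 at day 1, and to 460 to 493 and 541 to 621 at day 3. Adipocyte markers summed to 144 to 149 FPKM in siCtrl and 109 to 123 in siPRMT1 at day 1, and to 2068 to 2239 and 1627 to 1843 at day 3. Both sums thus moved with time and, at day 3, with the siRNA. Within the day 3 preadipocyte or fibroblast sum, Col3a1 differed most, from a mean of 246.7 FPKM in siCtrl to 334.4 in siPRMT1. Pdgfra and Pdgfrb were also higher in every siPRMT1 library, while Col1a1 and Thy1 overlapped. Dlk1 went the other way, from 21.5 to 20.6 FPKM, with overlap. The adipocyte sum was also apart between the siRNA groups at day 1. The part of these sums in the results below was not tested. Macrophage markers summed to 4 to 7.12 FPKM with Ptprc at 0 counts in all 12 libraries, and endothelial markers to 0.12 to 0.88 FPKM. The 5 dendritic cell markers summed to 24.8 to 29.4 FPKM in siCtrl and 60.9 to 92.7 in siPRMT1 at day 1. At day 3 they summed to 17.7 to 24.6 and 27.1 to 36.2 FPKM. Bst2, which is also interferon-stimulated, made up nearly all of that sum. Of the others, Siglech and Cd209a were at 0 counts throughout, and Flt3 and Itgax held 6 and 23 counts in all.

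Levels of the 10 genes are compared here in FPKM, which allows for their length. In siCtrl cells at day 1, Mavs (22.7 ± 2.41 FPKM, SD, n = 3) and Eif2ak2 (19.6 ± 4.04) stood highest, followed by Irf3 (13.03 ± 1.94), Ddx58 (9.90 ± 0.354) and Adar (9.23 ± 0.621). Dhx58 (1.86 ± 0.318), Tlr3 (1.15 ± 0.269), Irf7 (0.84 ± 0.216), Ifih1 (0.577 ± 0.0737) and Zbp1 (0.177 ± 0.0551) formed a lower set. The ranges of Mavs and Eif2ak2, Eif2ak2 and Irf3, Ddx58 and Adar, Tlr3 and Irf7, and Irf7 and Ifih1 overlapped. Overlap of ranges over 3 libraries does not show that neighbours have the same level. Within each library Irf7 lay above Ifih1 (0.90, 0.60 and 1.02 against 0.66, 0.55 and 0.52 FPKM). In the other pairs the order in replicate 3 was the reverse of that in replicates 1 and 2. By day 3 in siCtrl cells the order ran Mavs (48.3 ± 3.93 FPKM), Irf3 (19.4 ± 0.179), Eif2ak2 (14.65 ± 1.955), Adar (6.62 ± 0.135), Ddx58 (4.30 ± 0.450), Tlr3 (1.19 ± 0.0839), Irf7 (0.947 ± 0.363), Dhx58 (0.927 ± 0.146), Ifih1 (0.317 ± 0.0231) and Zbp1 (0.0867 ± 0.0351). Only Tlr3 with Irf7 and Irf7 with Dhx58 overlapped among neighbours at that day. Mavs led and Zbp1 stood last in all 4 groups.

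**Figure D1:**
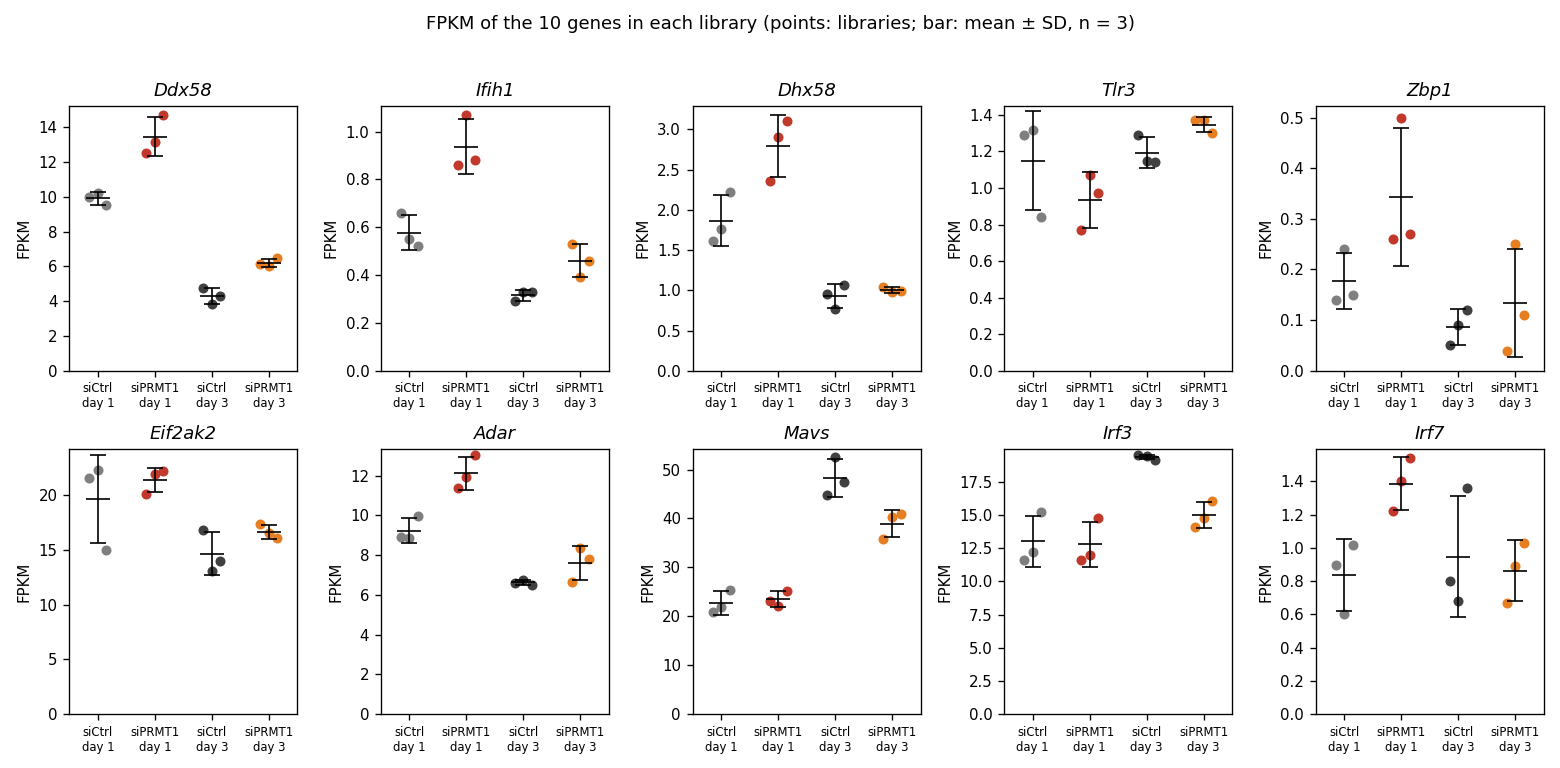
FPKM of each gene (vertical axis, from 0) in the 4 groups (horizontal axis); points are libraries and the bar with whiskers is the mean ± SD of 3. Ddx58, Ifih1, Dhx58, Irf7, Zbp1 and Adar lie higher in every siPRMT1 library than in every siCtrl library at day 1, Dhx58 in FPKM only. Zbp1 has 7 to 29 counts per library there and passed the filter only through siPRMT1. At day 3 Ddx58, Ifih1 and Tlr3 lie higher in every siPRMT1 library, and Mavs and Irf3 lie lower.

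At day 1, what the knockdown comparison asked was whether the sensors and their signalling differed with PRMT1 reduced. A gene was called when edgeR's quasi-likelihood test gave an adjusted p under 0.05 over all genes tested and the absolute log2 fold change was over 0.5. All 10 genes passed the filter on low counts, Zbp1 only through its siPRMT1 libraries; Ifih1 was called higher and no gene was called lower, beside 1.95% of all 13689 genes tested called higher and 1.61% called lower. Of all genes called, 54.8% were higher with TMM scaling and 68.6% with library totals in its place. Ddx58, Ifih1 and Adar had an adjusted p under 0.05 at any fold change, beside 3.22% of genes for higher and 4.38% for lower. At an unadjusted p under 0.05 there were 6 genes, Zbp1 among them, all higher in siPRMT1, beside 24.6% of all genes in either direction, and DESeq2 likewise called 1 higher and 0 lower. Zbp1 aside, in 4 of 9 (Ddx58, Ifih1, Irf7 and Adar) every siPRMT1 library lay above every siCtrl library, beside 12.2% of all genes, and in none did every library lie below, beside 19.2%. The median log2 fold change of the 9 other than Zbp1 was 0.34, and that of all genes tested 0.01. RNA from a whole culture was measured, so fewer cells carrying a transcript and less transcript per cell cannot be told apart.

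At day 3, 9 of the 10 genes passed the filter (Zbp1 did not); Ddx58 was called higher and no gene was called lower, beside 2.84% and 3.80% of 14039 genes. Mavs and Irf3 had an adjusted p under 0.05 with negative fold changes that lay under the fold threshold, beside 8.94% of genes lower at any fold change and 7.54% higher. At an unadjusted p under 0.05 there were 5 genes, beside 31.3% of all genes in either direction. Of the 5, Ddx58, Ifih1 and Adar were higher in siPRMT1, and Mavs and Irf3 were lower. DESeq2 also called 1 higher and 0 lower. Every siPRMT1 library lay above every siCtrl library for Ddx58, Ifih1 and Tlr3, beside 15.6% of genes, and below for Mavs and Irf3, beside 19.3%. The median log2 fold change of the 9 was 0.17, and that of all genes 0.01.

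**Figure D2:**
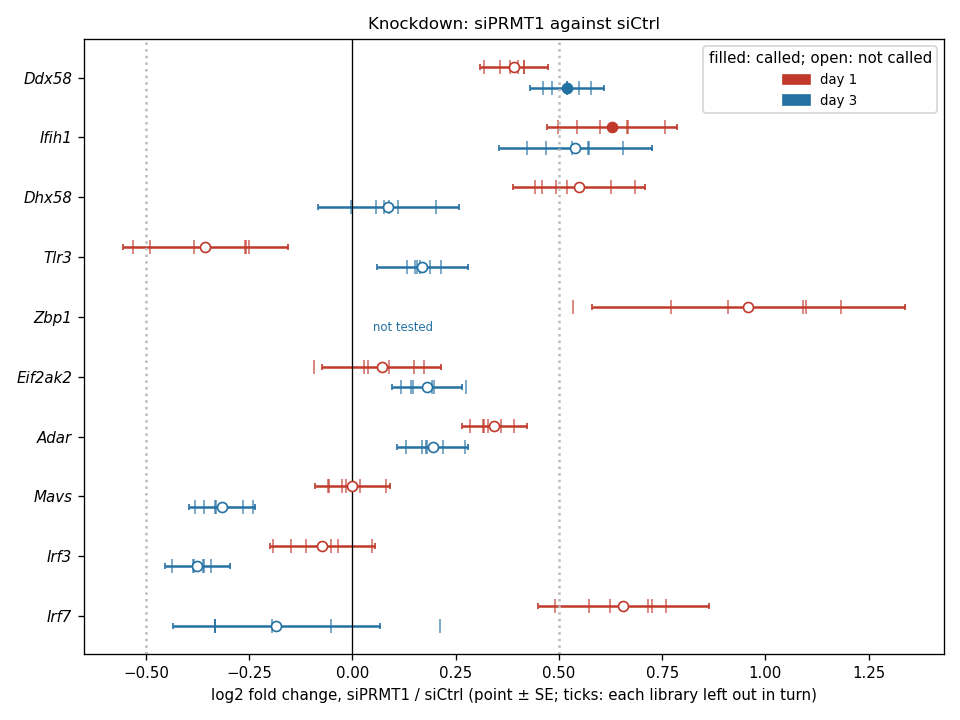
Log2 fold change of siPRMT1 over siCtrl (horizontal axis) for each gene at day 1 and day 3; points with whiskers are the edgeR estimate ± SE, filled where called, small ticks are the estimates with each library left out in turn, and dotted lines mark the threshold of 0.5. Ifih1 at day 1 (0.63) and Ddx58 at day 3 (0.52) are filled, and Mavs and Irf3 move from near 0 at day 1 to below 0 at day 3.

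Ddx58 encodes RIG-I, which binds short blunt RNA duplexes with a 5′ triphosphate (chr4:40203777-40239825, minus strand). Its level was 9.99, 10.2 and 9.51 FPKM in siCtrl and 12.5, 13.2 and 14.7 FPKM in siPRMT1 at day 1. At day 3 it was 4.75, 3.85 and 4.31 FPKM in siCtrl and 6.15, 6.03 and 6.46 FPKM in siPRMT1. The siRNA groups did not overlap on either day. The log2 fold change was 0.39 ± 0.08 (SE) at day 1, with an adjusted p of 0.0266 in edgeR, so it passed on p and lay under the fold threshold. With each library left out in turn, that adjusted p ran from 0.00242 to 0.137. At day 3 the log2 fold change was 0.52 ± 0.09 with an adjusted p of 9.9e-04 and was called. The day 3 estimate fell to 0.46 without siCtrl replicate 2 and to 0.48 without siPRMT1 replicate 3, both under the fold threshold with adjusted p of 0.00592 and 0.00471. With 1000 counts or more in each day 1 library and 288 or more at day 3, Ddx58 was among the better counted of the sensors.

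Ifih1 encodes MDA5, which binds long double-stranded RNA (chr2:62595793-62646255, minus strand). It was counted at 62 to 162 reads per library at day 1 and at 28 to 65 at day 3. The FPKM values were 0.66, 0.55 and 0.52 in siCtrl and 0.86, 1.07 and 0.88 in siPRMT1 at day 1. They were 0.29, 0.33 and 0.33 in siCtrl and 0.53, 0.39 and 0.46 in siPRMT1 at day 3. Again the siRNA groups did not overlap on either day. At day 1 the log2 fold change was 0.63 ± 0.16 with an adjusted p of 0.0480, and at day 3 it was 0.54 ± 0.19 with an adjusted p of 0.0593, which missed the threshold. The day 1 call held without siCtrl replicate 3 (0.54, adjusted p 0.0191) and was lost without each of the others: 0.76 (adjusted p 0.0539) without siCtrl replicate 1, 0.60 (0.151) without siCtrl replicate 2, and 0.66 (0.134), 0.50 (0.176) and 0.67 (0.139) without siPRMT1 replicates 1, 2 and 3. The gene shares 64 exon bases with Gm39839 on the other strand, which had 1 count in all.

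Dhx58 encodes LGP2, a helicase of the same family without the signalling domain, which tunes RIG-I and MDA5 (chr11:100694884-100704271, minus strand). At day 1 it was listed at 1.61, 1.76 and 2.22 FPKM in siCtrl and at 2.36, 2.90 and 3.11 FPKM in siPRMT1. The FPKM ranges were apart, but the CPM values (counts scaled to a common library size) on which overlap was judged touched, at 5.65 in both siCtrl replicate 3 and siPRMT1 replicate 1. The log2 fold change was 0.55 ± 0.16 with an adjusted p of 0.0783 and was not called; without siCtrl replicate 3 it was 0.69 with an adjusted p of 0.00385. At day 3 the levels were 0.95, 0.77 and 1.06 FPKM in siCtrl and 1.04, 0.98 and 0.99 FPKM in siPRMT1, with a log2 fold change of 0.09 ± 0.17 and an adjusted p of 0.780. Of its 2412 exon bases, 141 (5.85%) lie in Gm38483 on the other strand, which held 24 to 77 counts per library, and the sources used here do not give the strand setting of the counting.

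Tlr3, the endosomal receptor (chr8:45395665-45411949, minus strand), went the other way at day 1 without passing the test. It stood at 1.29, 1.32 and 0.84 FPKM in siCtrl and at 0.77, 1.07 and 0.97 FPKM in siPRMT1, so that siCtrl replicate 3 lay among the siPRMT1 libraries. The log2 fold change was -0.36 ± 0.20 with an adjusted p of 0.316, and without siCtrl replicate 3 it was -0.53 with an adjusted p of 0.0114. At day 3 all siPRMT1 libraries (1.37, 1.37 and 1.30 FPKM) lay above all siCtrl libraries (1.29, 1.15 and 1.14), though the difference was small (0.17 ± 0.11, adjusted p 0.318).

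Zbp1, the sensor of Z-form nucleic acid (chr2:173206612-173218922, minus strand), was near the limit of detection. It had 13, 11 and 7 counts in siCtrl and 13, 29 and 14 in siPRMT1 at day 1, which is 0.14, 0.24 and 0.15 FPKM against 0.26, 0.50 and 0.27. The siRNA groups did not overlap in CPM, yet the log2 fold change of 0.96 ± 0.38 had an adjusted p of 0.162. At day 3 it had 2, 3 and 6 counts in siCtrl and 2, 14 and 6 in siPRMT1, and was not tested. A count of 0 would allow up to 0.0708 to 0.198 CPM in these libraries (3 counts each), and the day 3 siCtrl mean of 0.182 CPM lies within that range. Intervals and floors of this kind cover counting error only.

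Eif2ak2 encodes PKR (chr17:78852550-78882572, minus strand), and it was well counted, at 909 or more per library. Its day 1 levels were 21.6, 22.3 and 14.99 FPKM in siCtrl and 20.1, 21.9 and 22.2 FPKM in siPRMT1. Here siCtrl replicate 3 lay below every other day 1 library, and the other 5 lay close together. The log2 fold change was 0.07 ± 0.14 (adjusted p 0.815), and it turned to -0.09 without that library, with an adjusted p of 0.254. Day 3 levels were 16.9, 13.1 and 13.99 FPKM in siCtrl and 17.4, 16.6 and 16.1 FPKM in siPRMT1, with overlap and a log2 fold change of 0.18 ± 0.09 (adjusted p 0.163). Exons of Gm26637 on the other strand cover 173 of its bases, with 11 to 45 counts per library. The other kinases of eIF2α served as a comparison: none of Eif2ak1, Eif2ak3 and Eif2ak4 was called on either day. Eif2ak1, the heme-regulated kinase, had an adjusted p under 0.05 on both days with negative fold changes under the threshold (-0.41 ± 0.07, adjusted p 0.0129, and -0.22 ± 0.07, adjusted p 0.0382).

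Adar, the editing enzyme (chr3:89715022-89753455, plus strand), stood at 8.89, 8.86 and 9.95 FPKM in siCtrl and at 11.4, 11.9 and 13.01 FPKM in siPRMT1 at day 1. Every siPRMT1 library was above every siCtrl library. The log2 fold change was 0.34 ± 0.08 with an adjusted p of 0.0368, under the fold threshold. With each library left out in turn, that adjusted p ran from 8.6e-04 to 0.163. At day 3 the values were 6.62, 6.76 and 6.49 FPKM in siCtrl and 6.67, 8.34 and 7.80 FPKM in siPRMT1. Replicate 1 of siPRMT1 lay among the siCtrl libraries, and the log2 fold change was 0.19 ± 0.09 with an adjusted p of 0.135. Only 8 of its exon bases lie in another gene, Chrnb2.

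Mavs, the adaptor shared by RIG-I and MDA5 (chr2:131234063-131248025, plus strand), was the most abundant of the 10. At day 1 the levels were 20.9, 21.9 and 25.4 FPKM in siCtrl and 23.2, 22.1 and 25.2 FPKM in siPRMT1, a log2 fold change of 0.00 ± 0.09 (adjusted p 0.999). At day 3 they were 44.9, 52.6 and 47.5 FPKM in siCtrl and 35.75, 40.2 and 40.9 FPKM in siPRMT1. The highest day 3 siPRMT1 library lay under the lowest siCtrl library, with a log2 fold change of -0.32 ± 0.08 and an adjusted p of 0.0140, under the fold threshold. With each library left out in turn, that adjusted p ran from 0.00619 to 0.0816.

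Irf3, the factor that is present before stimulation in most cells (chr7:44997648-45002848, plus strand) was at 607 or more counts per library. At day 1 it was 11.6, 12.2 and 15.2 FPKM in siCtrl and 11.6, 11.97 and 14.8 FPKM in siPRMT1, with a log2 fold change of -0.07 ± 0.13 (adjusted p 0.781). At day 3 it was 19.5, 19.5 and 19.2 FPKM in siCtrl and 14.1, 14.8 and 16.1 FPKM in siPRMT1. The day 3 siRNA groups did not overlap, and the log2 fold change was -0.38 ± 0.08 with an adjusted p of 0.00427, under the fold threshold.

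Irf7, the factor that interferon itself raises (chr7:141263183-141266499, minus strand), had 20 to 74 counts per library. At day 1 it was listed at 0.90, 0.60 and 1.02 FPKM in siCtrl and at 1.22, 1.40 and 1.54 FPKM in siPRMT1. These groups did not overlap, but the log2 fold change of 0.66 ± 0.21 had an adjusted p of 0.0945; without siCtrl replicate 3 it was 0.76 with an adjusted p of 0.0171. At day 3 the values were 0.80, 0.68 and 1.36 FPKM in siCtrl and 0.67, 0.89 and 1.03 FPKM in siPRMT1. The groups overlapped, with a log2 fold change of -0.18 ± 0.25 and an adjusted p of 0.656.

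Whether a knockdown difference itself changed between the days was tested as the interaction of siRNA and time over all 12 libraries. It was called for 0 of the 10 genes in edgeR, beside 7.69% of 14612 genes called with a positive interaction and 4.63% with a negative (12.3% in all), and DESeq2 called 0 as well. Of all genes that edgeR called, 62.4% were positive with TMM scaling and 44.5% with library totals. At an unadjusted p under 0.05 there were 3 of the 10, near the 27.3% of all genes: Tlr3 (0.54 ± 0.22, adjusted p 0.125), Mavs (-0.29 ± 0.13, adjusted p 0.161) and Irf7 (-0.81 ± 0.36, adjusted p 0.155). The difference between a called and an uncalled day, as for Ifih1 or Ddx58, was therefore not shown to be a difference between days. Without siCtrl day 1 replicate 3, the interaction passed for Tlr3 (0.68, adjusted p 0.00807), Mavs (-0.41, adjusted p 0.0127) and Irf3 (-0.44, adjusted p 0.0177), and 11.8% of all genes then passed with a positive and 13.2% with a negative interaction, so 3 of 10 is again near the share of all genes.

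From day 1 to day 3 of induction, the helicase genes and the adaptor Mavs went in opposite directions. In siCtrl cells, Ddx58, Ifih1, Dhx58 and Adar fell from day 1 to day 3 and Mavs and Irf3 rose, beside 20.4% of 13829 genes called lower and 22.7% called higher. The log2 changes were -1.27 ± 0.10 for Ddx58 (adjusted p 3.6e-06), -0.96 ± 0.18 for Ifih1 (0.00118), -1.05 ± 0.19 for Dhx58 (0.00107) and -0.55 ± 0.09 for Adar (5.4e-04). Mavs rose by 1.02 ± 0.11 (adjusted p 2.3e-05) and Irf3 by 0.51 ± 0.12 (0.00422). Eif2ak2 passed on p at -0.49 ± 0.15 (adjusted p 0.0168), under the fold threshold, where 28.7% of genes passed lower and 30.2% higher at any fold change, and Tlr3 (-0.03 ± 0.18, adjusted p 0.910) and Irf7 (0.13 ± 0.29, adjusted p 0.729) did not pass. In 4 of the 9 genes tested every day 3 library lay below every day 1 library, beside 31.7% of genes, and in 2 above, beside 32.8%.

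In this siCtrl comparison, calls close to the fold threshold moved with single libraries. Irf3 fell under the fold threshold without each library but siCtrl day 1 replicate 3: 0.41 without day 1 replicate 1, 0.44 without day 1 replicate 2, and 0.47, 0.45 and 0.47 without day 3 replicates 1, 2 and 3. Adar went to -0.50 (-0.499) without day 1 replicate 3. Eif2ak2 passed the fold threshold without day 1 replicate 3 (-0.66) and without day 3 replicate 1 (-0.64).

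In siPRMT1 cells, Ddx58 (-1.13 ± 0.07, adjusted p 1.2e-08), Ifih1 (-1.04 ± 0.15, adjusted p 4.4e-05), Dhx58 (-1.49 ± 0.14, adjusted p 4.8e-07) and Adar (-0.68 ± 0.08, adjusted p 4.3e-06) fell, and so did Irf7 (-0.69 ± 0.18, adjusted p 0.00463). Mavs rose by 0.72 ± 0.07 (adjusted p 5.7e-07) and Tlr3 by 0.51 ± 0.12 (adjusted p 0.00247). These 5 falls and 2 rises stand beside 17.4% of 14224 genes called lower and 19.0% called higher. Zbp1 aside, every day 3 library lay below every day 1 library in 6 of 9 genes, beside 32.7% of genes, and above in 2, beside 34.0%. Eif2ak2 (-0.37 ± 0.06, adjusted p 1.4e-04) passed on p under the fold threshold, where 31.2% of genes passed lower and 32.2% higher at any fold change, and Irf3 (0.22 ± 0.09, adjusted p 0.0509) did not pass. Zbp1 (-1.31 ± 0.46, adjusted p 0.0233) is left out of these counts: it passed the filter only through its day 1 libraries, with 13, 29 and 14 counts against 2, 14 and 6, and in siCtrl cells it was not tested. Its adjusted p missed the threshold without siPRMT1 day 1 replicate 2 (-0.91, adjusted p 0.126) and without day 3 replicates 1 (-0.94, adjusted p 0.0704) and 3 (-1.17, adjusted p 0.0625). Tlr3 fell under the fold threshold without day 1 replicate 1 (0.39) and without day 3 replicates 1 (0.49) and 2 (0.49). The comparisons of days use the same libraries as those of siRNAs, so they are not independent of them, and the siCtrl and siPRMT1 courses are separated only by the interaction test above.

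**Figure D3:**
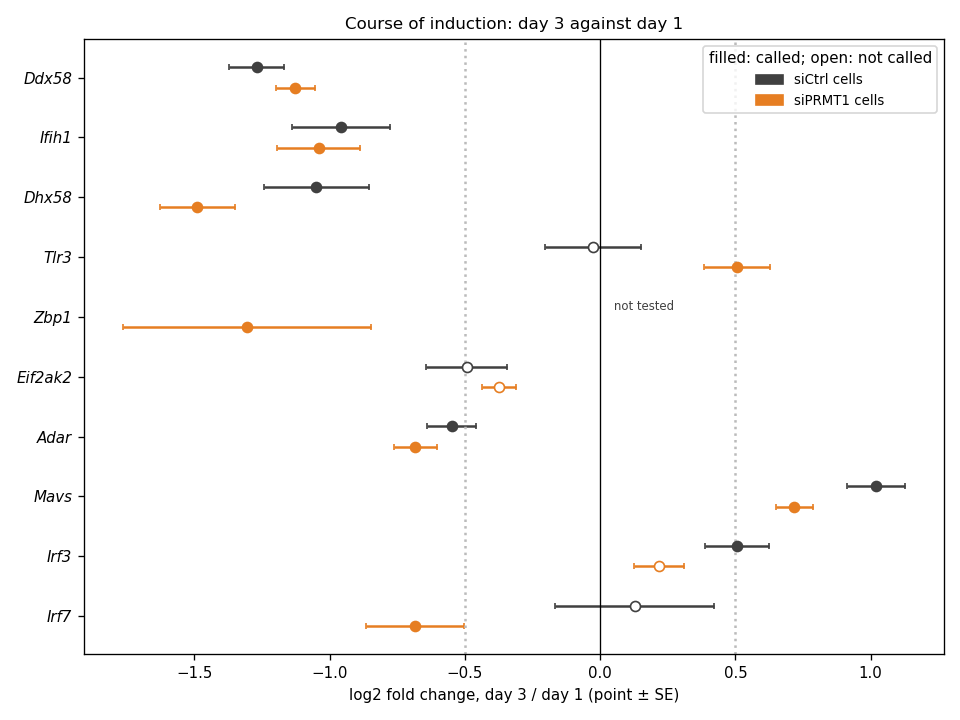
Log2 fold change of day 3 over day 1 (horizontal axis) for each gene in siCtrl and in siPRMT1 cells; points with whiskers are the edgeR estimate ± SE, filled where called, and dotted lines mark the threshold of 0.5. The helicase genes Ddx58, Ifih1 and Dhx58 lie between -1.49 and -0.96, and Mavs lies at 1.02 and 0.72; Zbp1 is filled in siPRMT1 (-1.31), where it passed the filter only through day 1 libraries.

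The other genes of the pathway were counted from lists written by role, with earlier results of these data known. Calls for higher expression in siPRMT1 numbered 15 of 89 list genes at day 1 and 5 of 85 at day 3. In edgeR, calls for lower expression numbered 1 and 0, beside 1.61% and 3.80% of all genes. Without genes that passed the filter through libraries of 1 siRNA group only, the calls for higher expression were 13 of 85 and 3 of 80. Among called genes, Oas2 and Oasl1 at day 1 and Oas1b and Oasl2 at day 3 passed only through siPRMT1. The lists were counted against 1.95% of all genes called higher at day 1 and 2.84% at day 3, and against a median of 0.01 on both days. At any fold change, 16 of the 89 had an adjusted p under 0.05 higher and 5 lower at day 1, beside 3.22% and 4.38% of all genes. At day 3, 8 of the 85 passed higher and 6 lower, beside 7.54% and 8.94%. Of 24 other sensors and effectors of double-stranded RNA tested at day 1, 7 rose and 0 fell, with a median log2 fold change of 0.05. Both figures include Oas2 and Oasl1, which passed the filter only through siPRMT1 libraries. The rises included Oasl2 (from 2.03 ± 0.115 to 5.85 ± 0.851 FPKM, log2 fold change 1.48 ± 0.12) and Oas1b (from 0.64 ± 0.111 to 1.44 ± 0.163 FPKM, 1.13 ± 0.19), of the oligoadenylate synthetase family. Ifit1, whose product binds foreign RNA ends, went from 3.69 ± 0.805 to 10.2 ± 1.44 FPKM (1.40 ± 0.17). Ddx60, a helicase that assists RIG-I, went from 0.16 ± 0.0458 to 0.53 ± 0.0954 FPKM (1.64 ± 0.23), and Oasl1 from 0.107 ± 0.0115 to 0.633 ± 0.127 FPKM (2.46 ± 0.28). Their adjusted p ran from 0.00219 for Oasl2 to 0.0139 for Oas1b. At day 3, 4 of 20 were called higher, among them Ifit1 (from 0.543 ± 0.0666 to 1.43 ± 0.125 FPKM, 1.40 ± 0.18). Oasl2 (1.68 ± 0.36) and Oas1b (1.30 ± 0.37) are among the 4 but passed the filter only through siPRMT1 libraries. For these named genes the adjusted p ran from 7.1e-05 for Ifit1 to 0.0258 for Oas1b.

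None of the 29 adaptors, ubiquitin ligases, kinases and factors between the sensors and interferon was called on either day, with medians of -0.02 and -0.05. Beside this, 1.95% of all genes were called higher and 1.61% lower at day 1, and 2.84% and 3.80% at day 3. A count of 0 of 29 is thus near the share of all genes. At any fold change 2 of the 29 passed lower at day 1, beside 4.38% of all genes. At day 3, 2 passed lower, beside 8.94%, and 1 higher, beside 7.54%. Mex3c, a ubiquitin ligase of RIG-I, was at -0.41 ± 0.08 (adjusted p 0.0203) and Casp8 at -0.37 ± 0.08 (adjusted p 0.0294) at day 1. Mlkl and Ripk3, which act in necroptosis downstream of ZBP1, were at -0.42 ± 0.09 (adjusted p 0.00365) and -0.27 ± 0.08 (adjusted p 0.0264) at day 3. Ticam1, the adaptor of TLR3, was at -0.09 ± 0.13 and -0.21 ± 0.11 on the log2 scale at day 1 and day 3. Tbk1, the kinase of IRF3, was at -0.02 ± 0.08 and 0.07 ± 0.09, and neither passed the test (adjusted p 0.192 to 0.896 for these 4 values).

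The interferon genes themselves were close to absent from the counts. Of 20 type I and type III interferon genes, 16 were at 0 in all 12 libraries, the other 4 held 14 counts in all, and none passed the filter. Ifnb1 had 1 count, in siPRMT1 day 1 replicate 2. A gene at 0 could still stand at up to 0.0708 to 0.198 CPM, so these data limit the level of interferon mRNA without showing its absence.

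Past interferon, 2 of 7 genes of the receptor and ISGF3 rose at day 1: Stat2 from 6.75 ± 0.180 to 10.9 ± 0.975 FPKM (0.64 ± 0.08, adjusted p 0.00566) and Irf9 from 6.75 ± 0.534 to 10.6 ± 1.21 FPKM (0.60 ± 0.10, adjusted p 0.0158). The median log2 fold change of the 7 was 0.13 at day 1 and 0.09 at day 3. Of all genes, 1.95% were called higher and 1.61% lower at day 1, and 2.84% and 3.80% at day 3. At day 3 none of the 7 was called, with Irf9 at 0.38 ± 0.09 (adjusted p 0.0111), Jak1 at 0.17 ± 0.06 (adjusted p 0.0769) and Stat2 at 0.14 ± 0.09 (adjusted p 0.279). Negative regulators had a median log2 fold change of -0.01 at day 1 and 0.03 at day 3. Of 14 tested, 2 rose at day 1 and none was called at day 3. They were Usp18, which removes ISG15 and blocks the interferon receptor (from 0.953 ± 0.103 to 2.81 ± 0.633 FPKM, 1.49 ± 0.20, adjusted p 0.00636), and Socs1, an inhibitor of JAK kinases (from 6.06 ± 1.02 to 10.2 ± 1.40 FPKM, 0.70 ± 0.15, adjusted p 0.0265). Rnf125 and Tkfc passed on p at day 3 with negative fold changes under the threshold (-0.49 ± 0.08 and -0.35 ± 0.09, adjusted p 7.9e-04 and 0.0152). Rnf125 also passed lower on p at day 1 (-0.41 ± 0.10, adjusted p 0.0473). At any fold change, 3 of the 14 passed higher and 1 lower at day 1, beside 3.22% and 4.38% of all genes. At day 3, 0 passed higher and 2 lower, beside 7.54% and 8.94%.

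Of 8 well-known interferon-stimulated genes, 6 were tested at day 1 and all 6 rose, with a median log2 fold change of 1.37. Over all genes, 1.95% were called higher and 1.61% lower at day 1, and 2.84% and 3.80% at day 3. Rtp4 went from 0.88 ± 0.139 to 3.88 ± 0.415 FPKM (2.06 ± 0.16, adjusted p 0.00146), Mx1 from 0.76 ± 0.0436 to 2.01 ± 0.221 (1.34 ± 0.14, adjusted p 0.00302), Mx2 from 0.62 ± 0.173 to 1.63 ± 0.140 (1.35 ± 0.20, adjusted p 0.00960) and Bst2, which tethers budding virus, from 27.0 ± 2.32 to 73.4 ± 16.96 FPKM (1.39 ± 0.15, adjusted p 0.00352). Ifit1 and Ifit3 stand on this list and on that of double-stranded RNA effectors. At day 3, 2 of 4 tested rose, Ifit1 and Bst2 (0.58 ± 0.13, adjusted p 0.00513). Bst2 also stands on the dendritic cell marker list and made up nearly all of that list's sum. Isg15 had 1 count over the 12 libraries and was not tested: 643 of its 756 exon bases (85.1%) lie in exons of LOC108168990, and the sources used here do not say how reads on shared bases were counted. Among sensors of DNA and single-stranded RNA, Ifi204 was called lower at day 1 (-0.59 ± 0.14, adjusted p 0.0399), 1 of 8 tested, and its value is uncertain because 2 more rows carry its name with a suffix. None of 10 was called at day 3, where Ifi203 (0.79 ± 0.35, adjusted p 0.132) and Trex1 (-0.22 ± 0.11, adjusted p 0.171) had the smallest p. Ifi203 likewise has 2 more rows under suffixed names, so its value is uncertain too.

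**Figure D4:**
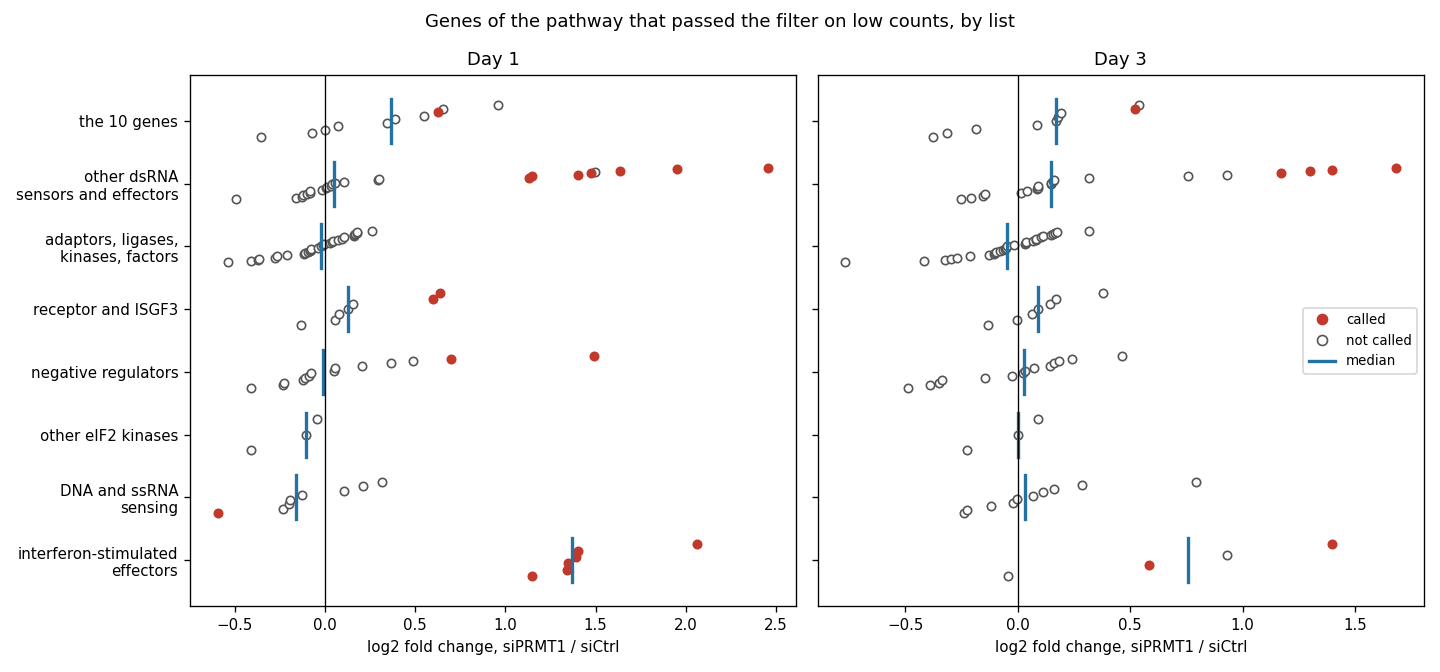
Log2 fold change of siPRMT1 over siCtrl (horizontal axis) at day 1 and day 3 for every list gene that passed the filter on low counts, in rows by list; red points were called, open points were not, and the blue bar is the median of the row. At day 1 all 6 tested interferon-stimulated effectors are called, between 1.15 and 2.06. None of the 29 adaptors, ligases, kinases and factors is called, near the share of all genes (1.95% higher and 1.61% lower).

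Calls moved with single libraries at day 1, on these lists and over all genes. Over all genes the 267 higher went to 165 without siCtrl replicate 1 and to 93 without siCtrl replicate 2. Without siPRMT1 replicates 1, 2 and 3 they went to 92, 85 and 61, and without siCtrl replicate 3 to 504. The 15 higher on the lists went to 8 without siPRMT1 replicate 2 and to 7 without siPRMT1 replicate 3, and ranged from 10 to 16 without each of the others; 1 gene was called lower in the full set and without siCtrl replicate 3, and 0 without each of the others. At day 3 the 5 higher went to 3 without siPRMT1 replicate 2, and 1 gene was called lower without each of siCtrl replicate 3, siPRMT1 replicate 1 and siPRMT1 replicate 2.

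As a description of pattern, each gene was set beside 12465 others averaging at least 1 CPM (12466 for Zbp1) by the root mean square difference of log2 CPM, each centred on its mean over the 12 libraries. The nearest 3 were Parp8, Sgk1 and Slit2 to Ddx58 (0.10, 0.11 and 0.12), Il1rl1, Cd93 and Cep152 to Ifih1 (0.16 each) and Stat2, Galnt2 and Gm40378 to Dhx58 (0.14, 0.16 and 0.16). Beside Tlr3 stood Zeb2, Klhl24 and a second row of Rpe (0.10, 0.10 and 0.12), beside Eif2ak2 Stag1, Slk and Zcchc7 (0.05, 0.06 and 0.06) and beside Adar Zdhhc18, Unc5b and Hdac7 (0.05, 0.09 and 0.09). Mavs lay nearest Epb41l1, Eif2b4 and Mfn2 (0.05, 0.06 and 0.06) and Irf3 nearest Bckdk, Ube2m and Noa1 (0.08 each). The low-count genes had no close match: Irf7 was 0.25 from Fam96b, Mex3d and LOC102633880, where its own root mean square deviation was 0.40, and Zbp1 was 0.42 from Cdk20 and Prdm11 and 0.43 from Lrrc4c, where its own was 0.77. Stat2 was the only gene of the pathway lists among these neighbours.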

How the data were processed

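Total RNA from siCtrl and siPRMT1 3T3-L1 cells was sequenced as mRNA libraries. Per the submitters' processing notes, reads were handled with cutadapt 1.11, HISAT2 2.1.0 and RSEM 1.2.6 on mm10 (GRCm38); the role of RSEM and the strand setting are not given in the sources used here. The deposited counts are whole numbers per gene without normalization. For FPKM, the authors divided those counts by the listed gene length and the library total; recomputed values differed by at most 0.005.

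Counts were tested with edgeR 4.0.16 (R 4.3.3), quasi-likelihood test, TMM normalization and filterByExpr, over all genes, with Benjamini-Hochberg adjustment. Calls needed an adjusted p below 0.05 together with a log2 fold change beyond 0.5 in either direction (interaction: adjusted p alone). SE is the absolute log2 fold change over the square root of F. Fits were checked on simulated data. Two-sided exact permutation tests of FPKM cannot go below p = 0.1 with 3 against 3 libraries and are not quoted. No 2 replicates agreed within sampling noise (chi-square per gene 4.14 to 50.6 over 12 pairs).

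Members and lists were chosen with earlier results of these data known. Named were the 10 genes, Prmt1, from each list the called genes (up to 5 by smallest p at each day, otherwise up to 2 genes by smallest p), 7 fixed genes of interferon signalling, and the 3 genes nearest each member; further genes beyond this rule were named after their values were seen. Some genes that the rule names are not reported here. Alternatives were DESeq2 1.42.0, RLE, upper-quartile and library-total scaling, other filters, all 12 libraries in a single model, the replicate number as a block, no fold threshold, limma 3.58.1 on log2(FPKM + 1) or log2(FPKM + 0.1), and leaving out each library. Gene positions come from the count table, and windows and transcripts from RefSeq (GRCm38.p6) and GENCODE.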

Additional observations from a re-analysis of the deposited data

Results flagged for a closer look

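The interaction of siRNA and time passed an adjusted p of 0.05 in edgeR for 10 genes of the pathway lists and for none of the 10 genes of this report. Values are given for 9 of them. For these genes the knockdown difference at day 3 minus that at day 1 was tested directly over all 12 libraries. It was negative, that is, lower at day 3, for Rtp4 (-2.08 on the log2 scale, adjusted p 4.5e-05), Usp18 (-1.0, adjusted p 0.0329), Bst2 (-0.79, adjusted p 0.0328), Tarbp2 (-0.52, adjusted p 0.0261), Stat2 (-0.48, adjusted p 0.0136) and Mlkl (-0.43, adjusted p 0.0342). It was positive for Mex3c (0.46, adjusted p 0.0280), Samhd1 (0.37, adjusted p 0.0157) and Jak1 (0.32, adjusted p 0.0115). Over all genes tested, 12.3% passed, and 10 of 91 list genes did.

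The groups hold 3 libraries each, too few for a test of single outlying samples.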

How the results depend on the processing

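Of 879 member fold changes under the alternatives, 797 kept their direction and side of the threshold, 37 lost a call, 18 gained one and 27 turned in sign, none of these while called. Of 260 counts, 196 stayed within 1.5 times the reported count. Whether the replicate numbers pair the samples was not settled. Correlations of same-numbered libraries ran from -0.10 to 0.35 between the siRNA groups at day 1 and from -0.07 to 0.32 at day 3. Those of different-numbered libraries ran from -0.42 to 0.38 and from -0.39 to 0.31. With the replicate block, 2 members were higher at day 1 (Ifih1 and Dhx58), Mavs at day 1 turned to 0.0019 and Tlr3 in siCtrl over time to 0.0054, and no other member call changed.

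Members called higher at day 1 went from 1 to 0 with at least 10 counts in every library and in all 3 limma fits (Ifih1 lies below 1 FPKM on average and was untested in 2 of them), to 2 with all 12 libraries in 1 model, and to 3 without the fold threshold. With each library left out they ran from 0 to 3, and members called lower from 0 to 1. At day 3 members called higher went to 2 with no filter and to 0 in both limma fits with a pseudocount of 1, and members lower to 2 without the fold threshold; leaving libraries out gave 0 to 1 higher. Over time, members called higher in siCtrl went to 1 with no filter and to 1 to 2 with a library left out, and members lower to 2 in limma. In siPRMT1, members higher went to 1 with no filter and in limma and to 1 to 2 with a library left out, and members lower to 3 in limma with a pseudocount of 1. The interaction gave 0 to 1 higher and 0 to 2 lower with a library left out.

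List genes lower at day 1 went from 1 to 0 with library totals and in all limma fits and to 5 without the fold threshold; leaving out libraries gave 7 to 16 higher and 0 to 1 lower. At day 3 list genes higher went from 5 to 3 with at least 10 counts, to 8 without the fold threshold and to 1 in limma, lower to 1 with no filter or all 12 libraries and to 6 without the fold threshold; leaving out libraries gave 3 to 6 higher and 0 to 1 lower.

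Signs turned only for values near 0 or with few counts. Mavs at day 1 became 0.0497 with library totals, 0.0074 with upper-quartile scaling and 0.0493 and 0.0514 in limma, and ran from -0.0583 to 0.081 with a library left out. At day 1, leaving out libraries gave -0.0934 to 0.174 for Eif2ak2 and -0.1929 to 0.0467 for Irf3, and at day 3 -0.0025 to 0.2032 for Dhx58 and -0.3332 to 0.2124 for Irf7. Over time in siCtrl, Tlr3 became 0.0443 with library totals and 0.036 and 0.0719 in limma; leaving out libraries gave -0.2055 to 0.0595 for Tlr3 and -0.3025 to 0.2443 for Irf7. The interaction ran from -0.0082 to 0.2548 for Eif2ak2, -0.1917 to 0.0459 for Ifih1 and -1.047 to 0.1366 for Zbp1.

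With library totals in place of TMM, the share of higher among called genes went from 54.8% to 68.6% at day 1, and from 62.4% to 44.5% for the interaction. Low counts limit what can be said of Zbp1, Irf7 and the interferon genes. The causes of these differences were not tested.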
